A study of Mus musculus with 2 samples.

Results

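The genes described here are 7 transcription factor genes known from the mesenchyme of the ureter and kidney: the T-box genes Tbx18, Tbx2, Tbx3 and Tbx20, and the Teashirt genes Tshz1, Tshz2 and Tshz3. They were chosen by name and matched by Ensembl identifier, and all 7 are among the 43346 mouse genes of both gene tables. Total RNA was sequenced from kidneys of healthy B6NCrl mouse embryos at 16.5 days of development. The samples form 1 group of 2 libraries that the labels call biological replicates 2 and 1, each a pool of male and female embryos. Replicate 2 came from 41 embryos, whereas the size of the other pool is not stated. No genotype, treatment or second tissue is labelled, and the labels do not say how much ureter, renal pelvis or adjoining tissue was taken with the kidneys. With 1 library on each side, differences between the pools carry no test, and an exact test over 2 libraries could not go below p = 0.5.

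During development of the mouse urinary tract, the epithelium of the ureter sends hedgehog and Wnt signals to the surrounding mesenchyme, which answers with BMP4 signalling and forms smooth muscle and fibroblast layers. T-box proteins bind DNA through a shared domain, and many act as repressors. Teashirt proteins are large zinc finger and homeobox proteins that also act largely as repressors. Tbx18 marks the undifferentiated ureteric mesenchyme and is needed for its aggregation around the ureter, Tbx2 and Tbx3 act downstream of hedgehog signalling there, and Tshz3 is needed for ureteral smooth muscle.

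Levels are given in TPM (transcripts scaled to a fixed total per library) and to gene length, as the mean ± SD of both libraries (n = 2). Tbx3 was the most abundant of the 7 genes, and Tshz3, Tshz2, Tbx2 and Tshz1 followed within a narrow range. Tbx18 was lower, and Tbx20 was the lowest, with few reads in either library. A gene was counted as detected at 1 TPM or more in both libraries. This held for 6 of the 7 genes, all but Tbx20, against 62.2% of 21474 protein-coding genes. The median over all protein-coding genes was 5.50 TPM. In bulk tissue, fewer cells of a type and less RNA per cell cannot be told apart.

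**Figure D1:**
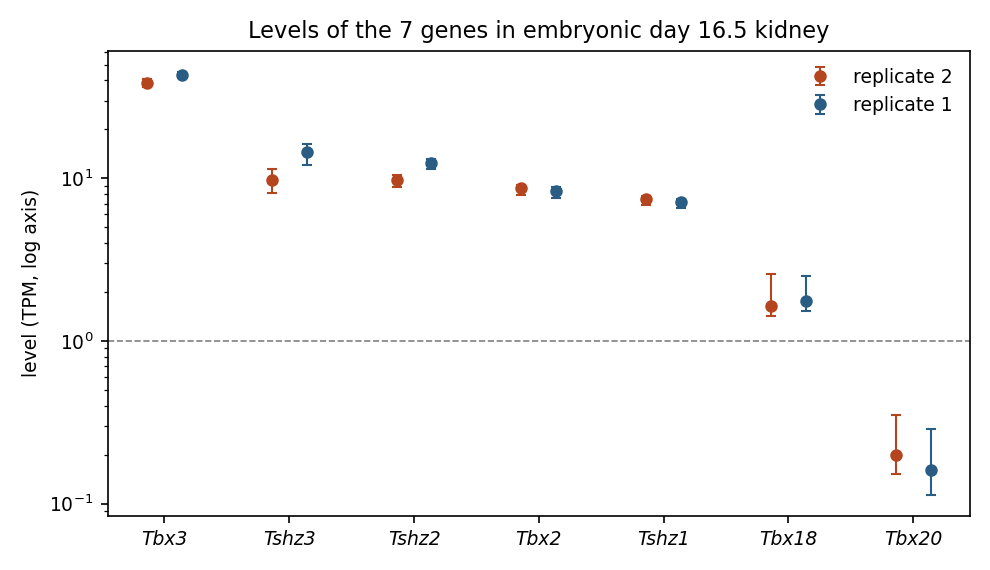
Level of each gene in TPM (log axis) in replicate 2 (left) and replicate 1 (right), with the deposited lower and upper TPM bounds of each estimate. The dashed line marks 1 TPM. Tbx3 stands above the other genes in both libraries, and Tbx20 alone lies under the line.

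Tbx3, a repressor that acts in ureteric mesenchyme and in many other embryonic tissues, had 38.64 TPM in replicate 2 and 43.36 TPM in replicate 1, a mean of 41.0 ± 3.34 TPM. The expected counts were 4311 and 4576, and 80.6% of protein-coding genes had a lower mean level. The deposited bounds, 36.6 to 41.1 TPM in replicate 2 and 41.2 to 45.2 TPM in replicate 1, did not overlap. The gene lies on the plus strand at chr5:119670669-119684724 (GRCm38).

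The Tbx3 transcripts annotated as protein-coding differ in a 60-nt exon at chr5:119675243-119675302. It is the exon known as 2a, which lengthens the DNA-binding domain. The stretches below show the junction with and without it, on the plus strand. Capitals mark the exon and the flanking bases are the same in both.
Tbx3 with the exon: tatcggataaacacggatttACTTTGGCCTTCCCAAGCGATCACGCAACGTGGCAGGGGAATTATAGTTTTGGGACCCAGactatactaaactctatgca
Tbx3 without the exon: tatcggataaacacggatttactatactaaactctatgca

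Transcripts without the exon were more abundant in both libraries. They held 24.26 TPM in replicate 2 and 25.97 TPM in replicate 1, which is 66.9% and 61.9% of the coding TPM of Tbx3. The transcript with the exon, ENSMUST00000018748.8, held 12.03 and 15.99 TPM, or 33.1% and 38.1%. These transcripts also differ at their 5′ ends, so the split may rest partly on reads outside the exon. The leading transcript, ENSMUST00000121021.3, made up 51.8 ± 2.55% of the gene's TPM. A retained-intron transcript held 2.34 TPM in replicate 2 and 1.40 TPM in replicate 1.

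Tbx2, the closest relative of Tbx3 and a repressor with overlapping functions, had 8.67 TPM in replicate 2 and 8.40 TPM in replicate 1, a mean of 8.54 ± 0.191 TPM. The expected counts were 762 and 680, all on a single transcript. The 2 libraries were close, and the gene lies at chr11:85832551-85841948 on the plus strand. Tbx3 exceeded Tbx2 by 4.46-fold in replicate 2 and by 5.16-fold in replicate 1. The noncoding gene 2610027K06Rik starts 327 nt away on the opposite strand and stood at a similar level, 7.64 TPM in replicate 2 and 8.44 TPM in replicate 1.

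Tbx18, the marker of undifferentiated ureteric mesenchyme, had 1.63 TPM in replicate 2 and 1.75 TPM in replicate 1, a mean of 1.69 ± 0.0849 TPM. The expected counts were 185.56 and 183.9, and 40.3% of protein-coding genes had a lower mean. All of these counts were assigned to the coding transcript, with 0 counts on a short noncoding transcript. The deposited posterior means, an alternative estimate, gave the short transcript 17.88% of the gene's TPM in replicate 2 and 13.23% in replicate 1. By that estimate the mean level of Tbx18 was 1.945 TPM. Within the libraries, Tbx3 exceeded Tbx18 by 23.7-fold in replicate 2 and 24.8-fold in replicate 1, and Tbx2 exceeded Tbx18 by 5.32-fold and 4.8-fold. The gene lies on the minus strand at chr9:87702800-87731260.

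The 250 bases before the start of Tbx18 are shown because it is the gene that defines this mesenchyme. They come from RefSeq (GRCm38.p6), chr9:87731261-87731510, and are printed on the minus strand. The letters GGTGTGA (core of the T-box element), TATAAA and CCAAT (core promoter elements) were searched on both strands, and capitals mark the match found.
Tbx18 promoter: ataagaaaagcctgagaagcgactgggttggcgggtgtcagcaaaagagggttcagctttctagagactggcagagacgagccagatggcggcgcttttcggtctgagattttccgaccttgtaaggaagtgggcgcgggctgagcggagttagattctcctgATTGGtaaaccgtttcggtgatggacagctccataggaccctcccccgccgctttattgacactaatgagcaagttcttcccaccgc
The match is the reverse complement of CCAAT, at bases -87 to -83 from the start. Over 32851 such promoters, CCAAT occurred in 33.8%, TATAAA in 12.4% and GGTGTGA in 3.33%. The window held 54.0% G and C, against a median of 52.4%, and 15 CpG pairs, against a median of 6. Promoters of 4 of the 7 genes were searched (Tbx18, Tbx20, Tshz2 and Tshz3), and none of the 4 windows held GGTGTGA or TATAAA. The Tshz2 window also held 1 match to CCAAT.

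Tbx20, a T-box gene best known from heart development, had 0.20 TPM in replicate 2 and 0.16 TPM in replicate 1, from 32 and 24 expected counts. The deposited bounds ran from 0.152 to 0.353 TPM and from 0.114 to 0.286 TPM. Reads were therefore present in both pools, at a level 8.15-fold and 10.9-fold below Tbx18. A count of 3 on a gene of 2 kb effective length would have been 0.0602 TPM in replicate 2 and 0.0653 TPM in replicate 1, a limit that covers counting error only. The gene lies at chr9:24718138-24774303 on the minus strand. Heart markers were scarce as a list: 1 of 6 was detected, Myl7, an atrial myosin light chain, at 4.25 TPM in replicate 2 and 7.45 TPM in replicate 1. The cardiac factor Nkx2-5 had 1 and 2 counts.

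Among the Teashirt genes, Tshz3, the factor needed for ureteral smooth muscle in mice, had the highest gene-level value. It had 9.80 TPM in replicate 2 and 14.42 TPM in replicate 1, a mean of 12.1 ± 3.27 TPM, from 589 and 713 expected counts. That level rests on a short noncoding transcript. Tshz3 lies at chr7:36698118-36773553 on the plus strand and has a coding transcript of 5098 nt, ENSMUST00000021641.7, and a noncoding one of 431 nt, ENSMUST00000176413.1. The short one joins part of the first exon to a 358-nt exon at chr7:36701756-36702113, inside the long intron, and lacks the exon at chr7:36768628-36773553 that carries nearly all of the protein. The junctions of both are shown on the plus strand, with the first bases of exon 2 in capitals.
Tshz3 coding transcript: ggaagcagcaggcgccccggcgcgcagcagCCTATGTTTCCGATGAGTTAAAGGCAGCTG
Tshz3 short transcript: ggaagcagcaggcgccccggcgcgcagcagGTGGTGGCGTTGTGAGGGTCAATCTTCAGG

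The short transcript received 45 of the Tshz3 counts in replicate 2 and 67 in replicate 1, which is 7.64% and 9.40%. Because it is short, the same reads made up 55.47% and 60.96% of the gene's TPM. The coding transcript held 544 and 646 counts, at 4.36 TPM in replicate 2 and 5.63 TPM in replicate 1. On coding transcripts alone the mean of Tshz3 was therefore 4.995 ± 0.898 TPM, below Tshz2 and Tshz1. Other transcribed units are annotated in the same intron on the same strand. Gm37452 had 35 counts in replicate 2 and 74 in replicate 1, a log2 ratio of -1.16 with a counting interval of -1.83 to -0.61. Whether reads of unspliced Tshz3 RNA entered the short transcript was not tested.

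**Figure D2:**
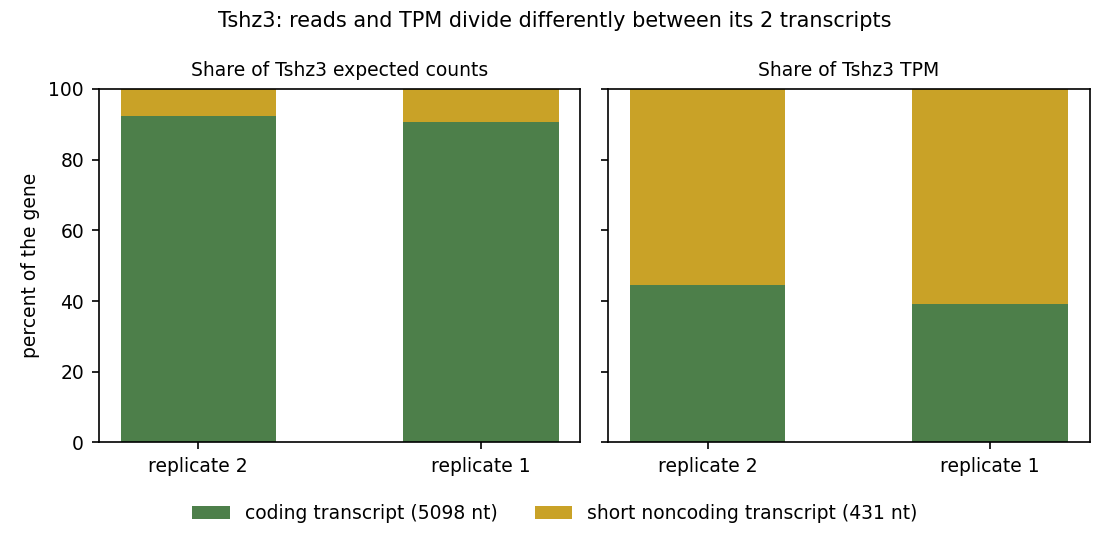
Share of Tshz3 expected counts (left panel, percent) and of Tshz3 TPM (right panel, percent) held by the coding and the short noncoding transcript, in replicate 2 (left bar) and replicate 1 (right bar). The short transcript holds 7.64% and 9.40% of the counts and 55.47% and 60.96% of the TPM.

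The Tshz3 promoter is shown beside that of Tbx18 because the windows differ in composition. It comes from RefSeq (GRCm38.p6), chr7:36697868-36698117, plus strand, and none of the letters searched was found in it.
Tshz3 promoter: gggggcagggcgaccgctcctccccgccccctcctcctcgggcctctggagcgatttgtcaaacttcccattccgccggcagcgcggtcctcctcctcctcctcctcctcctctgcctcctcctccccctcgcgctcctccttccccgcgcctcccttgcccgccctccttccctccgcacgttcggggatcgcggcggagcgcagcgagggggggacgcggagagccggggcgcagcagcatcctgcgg
It held 74.0% G and C and 27 CpG pairs, more pairs than 91.4% of promoters. The Tbx20 window held 22 pairs and the Tshz2 window held 2, fewer than the median of 6.

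Tshz2, a relative of Tshz3, had 9.71 TPM in replicate 2 and 12.48 TPM in replicate 1, a mean of 11.1 ± 1.96 TPM. Its expected counts were 946.53 and 1167.37. The deposited bounds, 8.91 to 10.5 TPM in replicate 2 and 11.5 to 13.1 TPM in replicate 1, did not overlap. The leading transcript, ENSMUST00000109159.2, made up 84.83% and 91.56% of its TPM. The gene lies at chr2:169633013-170071816 on the plus strand.

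The Tshz2 counts are shared with genes on the other strand. An exon of the noncoding gene Gm26883 at chr2:169883512-169888503 covers all of the 3061-nt exon 2 of the leading Tshz2 transcript. A630075F10Rik overlaps the 3′ part of the gene, beyond the end of that transcript. The estimates of Tshz2 and these genes are not whole, but together they came to 1581 in replicate 2 and 1688 in replicate 1, whole numbers within 0.02. The estimates thus divided reads between opposite strands. Tshz2 received 59.9% of the sum in replicate 2 and 69.2% in replicate 1, and Gm26883 received 629.28 and 515.25 counts. The TPM of Tshz2 and these overlapping genes summed to a mean of 16.1 TPM. This adds separate gene values and is not the level Tshz2 would have with all of these counts.

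The same held on a smaller scale for the T-box genes. Tbx18 and D030062O11Rik, which overlaps its 5′ part, summed to 196 counts in each library, with 94.7% and 93.8% given to Tbx18. Tbx3 and the antisense gene Tbx3os1 summed to 4357 and 4635 counts, with 99.0% and 98.7% given to Tbx3. Tbx3os1 itself stood at 4.99 TPM in replicate 2 and 7.11 TPM in replicate 1, from only 45.72 and 58.75 counts. Tbx2, Tbx20, Tshz1 and Tshz3 had whole counts, with no sign of such a division.

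**Figure D3:**
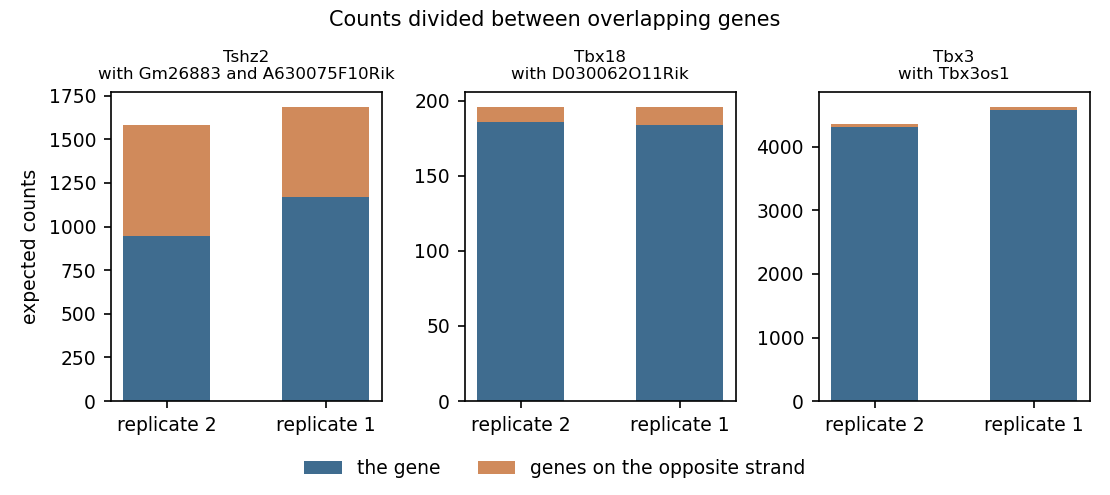
Expected counts of Tshz2, Tbx18 and Tbx3 (lower part of each bar) and of the overlapping genes on the opposite strand (upper part), in replicate 2 (left bar) and replicate 1 (right bar), with a separate axis for each panel. Opposite-strand genes hold a visible share for Tshz2 and a small one for Tbx18 and Tbx3.

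Tshz1, known in mice from the soft palate, the middle ear and the olfactory bulb, had 7.44 TPM in replicate 2 and 7.15 TPM in replicate 1, a mean of 7.30 ± 0.205 TPM. The counts were 1018 and 899, and 93.2 ± 0.629% of its TPM came from the transcript ENSMUST00000060303.9. The gene lies at chr18:84011627-84087706 on the minus strand. Its neighbour Zadh2, 356 nt away on the opposite strand, stood at 27.22 TPM in replicate 2 and 25.41 TPM in replicate 1.

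In the order of mean TPM, Tbx3 was followed by Tshz3, Tshz2, Tbx2, Tshz1, Tbx18 and Tbx20. The ranges of the 2 library values were separate for 5 of the 6 neighbouring pairs. Tshz3 and Tshz2 overlapped. On coding transcripts alone Tshz3 moved to the fifth place, behind Tshz1, and all 6 pairs were separate. Tshz3 exceeded Tshz1 by 1.32-fold in replicate 2 and 2.02-fold in replicate 1 by gene, but stood at 0.586 and 0.787 of Tshz1 on coding transcripts. The places of Tbx3, Tbx18 and Tbx20 did not change.

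Set against the family of 17 T-box genes, Tbx3 alone took 52.4% of the summed TPM in replicate 2 and 54.4% in replicate 1. Of the 13 other T-box genes 2 were detected. Mga, a large protein that pairs a T-box with a Myc-type domain, had 21.8 ± 1.65 TPM, and Tbx10 had 1.22 ± 0.0354 TPM. The remaining genes were under 1 TPM in at least 1 library, among them Tbx6 at 0.25 TPM in replicate 2 and 0.64 TPM in replicate 1 and Eomes at 0.035 ± 0.0212 TPM, and Tbx22 had 0 counts in both libraries. Tbx4 and Tbx5, known from hindlimb and forelimb, lung and heart, differed between the pools. Tbx4 had 106 counts in replicate 2 and 13 in replicate 1, a log2 ratio of 2.73 with a counting interval of 2.06 to 3.85. Tbx5 had 53 counts in replicate 2 and 10 in replicate 1, with a counting interval of 1.29 to 3.42. Tbr1 and Tbx6 were lower in replicate 2, from few counts. Tbr1 had 1 count in replicate 2 and 11 in replicate 1 (counting interval -9.02 to -0.806). Tbx6 had 10 and 24 counts (-2.62 to -0.275).

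**Figure D4:**
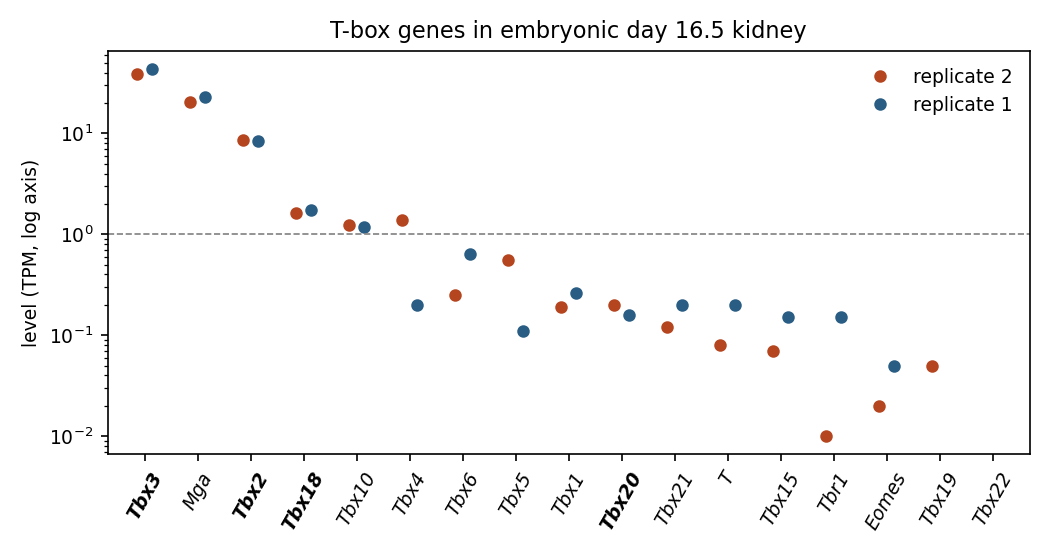
Level in TPM (log axis) of the 17 T-box genes in replicate 2 (left point) and replicate 1 (right point), ordered by mean, with the 4 genes described here in bold. The dashed line marks 1 TPM, and the values at 0 (Tbx22 in both libraries, Tbx19 in replicate 1) are not drawn. Tbx3, Mga and Tbx2 lead the family. Tbx4 and Tbx5, higher in replicate 2, and Tbr1, lower there from few counts, show wide gaps between the libraries.

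Differences between the pools were taken as log2 ratios of scaled counts, replicate 2 over replicate 1, for the 15363 genes whose mean reached 1 CPM (counts scaled to library size). Past 1.5-fold lay 5.88% of these genes, and 0 of the 6 genes described here that passed this filter did. Tbx20, at a mean of 0.772 CPM, did not enter. The ratio was -0.43 for Tshz2 (counting interval -0.56 to -0.31), -0.40 for Tshz3 (-0.56 to -0.25) and -0.22 for Tbx3 (-0.28 to -0.16). Replicate 2 was thus lower beyond counting error for these 3 genes. The size of the ratio exceeded that of 90.1% of genes for Tshz2, 89.1% for Tshz3 and 74.8% for Tbx3, while the median size over all genes was 0.11. When counts of overlapping genes were summed, the Tshz2 ratio was -0.22 (-0.32 to -0.12).

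The other genes lay closer to 0. Tbx18 had -0.11 (-0.42 to 0.19), Tbx2 had 0.04 (-0.12 to 0.19) and Tshz1 had 0.05 (-0.08 to 0.18), and each interval includes 0. Of the 6 genes 4 were lower in replicate 2, against 50.1% of all genes. All 6 had ratios above 0 when libraries were scaled to the spike-in RNAs, which shifted the median of all genes by 0.43. Relative to that shift the ratios were -0.43 for Tshz2, -0.40 for Tshz3 and -0.21 for Tbx3.

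Smooth muscle is the cell type that needs Tbx18 and Tshz3 in the mouse ureter. Its genes were higher in replicate 2, whereas Tshz2, Tshz3 and Tbx3 were lower there. All 10 on the list were detected and higher in replicate 2, and 7 of the 10 lay past 1.5-fold, where 2.03% of all genes did. The median log2 ratio was 0.83, and the summed level was 1041 TPM in replicate 2 and 531.9 TPM in replicate 1. Actg2, the smooth muscle gamma actin, had 152.98 TPM in replicate 2 and 17.38 TPM in replicate 1, a log2 ratio of 3.12 (2.99 to 3.26). Cnn1, calponin, had 28.42 and 7.33 TPM, a ratio of 1.94 (1.78 to 2.11), and Acta2 had 563.59 and 304.85 TPM, a ratio of 0.88 (0.84 to 0.91). Myocd, the coactivator that drives this program, had 6.40 TPM in replicate 2 and 3.63 TPM in replicate 1, a ratio of 0.79 (0.53 to 1.06). Smtn, smoothelin, was nearly level at 0.09 (0.04 to 0.14).

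Markers of urothelium, adrenal cortex and mesothelium were also higher in replicate 2. The nerve and heart genes that passed the filter were lower there. Of 5 urothelial genes tested 3 were past 1.5-fold higher in replicate 2, with Upk2, a uroplakin of the apical membrane, at 8.08 TPM there and at 3.55 TPM in replicate 1. Urothelial genes summed to 103.9 TPM in replicate 2 and 75.1 TPM in replicate 1. The same was true of 4 of 5 adrenal cortex genes (summed level 127.9 TPM in replicate 2, 81.0 TPM in replicate 1) and 2 of 3 mesothelial genes (14.4 and 9.54 TPM). Of 4 skeletal muscle genes tested 1 lay past 1.5-fold. Acta1, the skeletal actin, had 138.67 TPM in replicate 2 and 48.29 TPM in replicate 1. Myog was also higher in replicate 2, with a log2 ratio of 0.52 (0.07 to 1.02). Mylpf (log2 ratio -0.15, -0.38 to 0.09) and Tnnt3 (0.21, -0.03 to 0.46) had intervals that include 0. Of 4 nerve and glia genes tested all were lower in replicate 2 and Tubb3, a neuronal tubulin, was past 1.5-fold, where 3.85% of all genes were. The nerve and glia list summed to 26.4 TPM in replicate 2 and 41.1 TPM in replicate 1. Both heart genes tested were past 1.5-fold lower in replicate 2, Myl7 with a log2 ratio of -0.80 (-1.35 to -0.30) and Myh6 with -1.44 (-2.14 to -0.88). Heart genes below the filter did not share 1 direction. Gata4 had 37 counts in replicate 2 and 8 in replicate 1, a counting interval of 0.955 to 3.39. The interval was -0.142 to 2.93 for Nppa and -2.37 to -0.207 for Hand2. None of the genes on these marker lists was at 0 counts in either library. The part of these tissues in the levels of the Tbx and Teashirt genes was not tested.

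**Figure D5:**
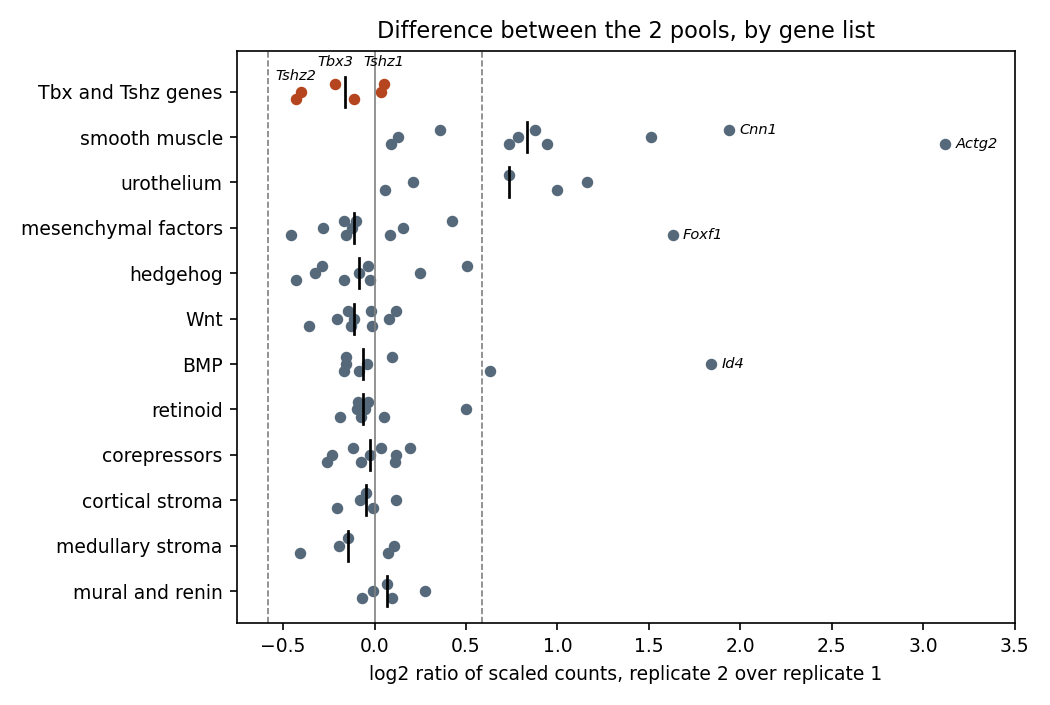
Log2 ratio of scaled counts, replicate 2 over replicate 1, for the 6 Tbx and Tshz genes above the filter and for gene lists of ureteric signalling and cell types. Each point is a gene, black bars are list medians and dashed lines mark 1.5-fold in either direction. Smooth muscle and urothelial genes lie to the right, and the Tbx and Tshz genes lie between -0.43 and 0.05.

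Genes of the signals that act on these factors in the ureter were mostly detected. Their counts past 1.5-fold stand beside 5.88% of all genes, and are given as values only. Of 9 hedgehog genes 8 were detected. The ligand Shh, made by the epithelium, was at 0.775 ± 0.0919 TPM, the receptor Ptch1 at 10.9 ± 0.156 TPM, the transducer Smo at 36.8 ± 2.84 TPM and the effector Gli1 at 6.52 ± 0.891 TPM. None of the 9 lay past 1.5-fold, and the median log2 ratio was -0.09. The largest ratios on this list were 0.505 (0.293 to 0.724) for Hhip and -0.43 (-0.80 to -0.08) for Ihh. All 9 Wnt genes were detected, from Axin2, a feedback inhibitor, at 4.34 ± 0.509 TPM to Ctnnb1, which encodes beta-catenin, at 433.8 ± 17.2 TPM. The epithelial ligand Wnt7b had 17.1 ± 1.07 TPM, the secreted antagonist Sfrp1 had 41.5 ± 2.43 TPM, and none of the 9 lay past 1.5-fold.

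All 8 BMP genes were detected, with the ligand Bmp4 at 30.8 ± 1.24 TPM and the target Id3 at 810 ± 12.9 TPM. Of the 8 genes 2 lay past 1.5-fold, both higher in replicate 2. Id4, an inhibitor of basic helix-loop-helix factors, had 17.42 TPM in replicate 2 and 4.8 TPM in replicate 1, a log2 ratio of 1.84 (1.61 to 2.10). The receptor Bmpr1a had 32.19 and 20.27 TPM, a ratio of 0.63 (0.56 to 0.70). All 8 retinoid genes were detected as well, led by Aldh1a2, which makes retinoic acid in mesenchyme, at 273.8 ± 8.24 TPM, and 0 of the 8 were past 1.5-fold.

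Of 12 other mesenchymal factors 10 were detected. Id2, at 397.3 ± 27.9 TPM, and Tcf21, a factor of stromal and podocyte lineages, at 301 ± 13.9 TPM, were far above the 7 genes described here. Foxf1, which acts downstream of hedgehog signals in gut and ureter, was the 1 factor past 1.5-fold, with 221 counts in replicate 2 and 64 in replicate 1, a log2 ratio of 1.63 (1.25 to 2.08). Foxf2, its relative, had 29 counts in replicate 2 and 2 in replicate 1, a counting interval of 1.75 to 6.84. Foxf1 and Foxf2 were thus higher in replicate 2, whereas Tshz2, Tshz3 and Tbx3 were lower there.

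The partners and targets of the factors were measured too. All 9 corepressor genes were detected, with Hdac1, a histone deacetylase, at 246.2 ± 14.2 TPM, Ctbp1 at 221.4 ± 21.9 TPM and Tle4, the lowest, at 10.0 ± 0.608 TPM, and none lay past 1.5-fold. Of 5 cell cycle inhibitor genes, some of them known to be repressed by Tbx2 and Tbx3, 3 were detected. Cdkn1c was at 418.3 ± 46.8 TPM and Cdkn1a at 73.1 ± 3.83 TPM, while Cdkn2a had 1 count in replicate 2 and 0 in replicate 1.

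Markers of the kidney itself were present. All 5 genes were detected in each list of cortical stroma, medullary stroma, mural and renin cells, nephron progenitors and ureteric tree, with median levels of 37.5, 51.5, 21.9, 54.6 and 91.2 TPM. None of the genes in these lists lay past 1.5-fold, where 5.88% of all genes lay, which is too small a share to set these lists apart. Single genes differed beyond counting error, such as Aqp2, the collecting duct water channel, with a log2 ratio of 0.57 (0.50 to 0.64) and Wnt4 with -0.41 (-0.56 to -0.26). Expected counts on mouse genes summed to 37900132 in replicate 2 and 34261328 in replicate 1, and spike-in RNAs took 2.08% and 2.82% of all counts. The biological coefficient of variation over the 15363 genes was 0.126.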

How the data were processed

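The authors deposited, per library, a gene table and a transcript table for assembly mm10 with annotation M4, per the labels and the deposited notes. The deposited expected counts are estimated counts that need not be whole. The authors scaled the deposited TPM and FPKM to length and library, with spike-ins in the total, and the deposited bounds of TPM are a non-negative signal from the same estimates. The deposited percent gives each transcript's share of its gene. Per the labels, 10 ng of RNA entered each library. The sources used here name no aligner, quantifier or strandedness.

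Names, gene types and coordinates came from GENCODE M21 (GRCm38, the same assembly as mm10), matched by identifier for 42462 of 43346 mouse genes, and its models can differ from those of M4. Of 69691 entries 96 are spike-ins and 26248 are named by number, and mouse genes alone entered library sizes. Expected counts were rounded, and edgeR 4.0.16 under R 4.3.3 gave TMM factors, with a prior count of 2 and a mean of at least 1 CPM. Counting intervals are exact binomial at 95% and cover counting error only. The code was tested on simulated data. DESeq2 1.42.0 size factors, library sizes, spike-in totals and other units and thresholds were alternatives. Python 3.11.15 with pandas 2.3.3, scipy 1.17.1 and matplotlib 3.10.9 was used. Transcript sequences are from GENCODE M21.

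The genes and lists were chosen with earlier results of these data known. The rule for naming covered the 7 genes and, from each list, up to 3 with the highest and 2 with the lowest mean TPM. It also covered up to 2 with the largest ratio between the pools. Not every gene under this rule is named, so the largest ratio of a list is not always shown. Other list genes were named for their role after their values were seen. The labels call the libraries biological replicates, and SDs measure only the spread of these pools.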

Additional observations from a re-analysis of the deposited data

How the results depend on the processing

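Of 137 alternative values, 115 kept their direction and stayed close to the reported value, and 18 moved by more. Close meant within the spread of the libraries for levels and transcript shares, and within the counting interval for log2 ratios. For counts of genes it meant within 1.5 times the reported count. A further 1 was weaker and 3 were reversed (Tbx3, Tshz2 and Tshz3 with spike-in totals), while the Tbx18 ratio with spike-in totals was classed as moved. The number of genes lower in replicate 2 was 4 with TMM, DESeq2 size factors, library size, TPM ratios, no filter and a prior count of 0.5, and 0 with spike-in totals. Scaling to spike-ins turned the sign of the log2 ratios of Tbx18 (0.32), Tbx3 (0.22), Tshz2 (0.0018) and Tshz3 (0.0275), by construction with the shift of 0.43 in all genes. Neighbouring pairs with separate ranges were 5 by TPM and 6 on coding transcripts or on sums over overlapping genes, and list genes at the threshold were 113 at 1 TPM and 92 at 5 TPM. The number of detected genes was 6 at 0.5 TPM, 5 at 5 TPM and 7 at 10 counts, and 6 in each library alone. Sums over coding transcripts and over overlapping genes were chosen after seeing the data. No paired analysis was possible because there is 1 group. The planned protein comparison was not run. With 2 libraries, no difference between the pools can be tested, and Tbx20, at 32 and 24 counts, fell below the filter on low counts.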
